A study of Homo sapiens with 12 samples.

Results

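The zinc finger genes of chromosome 19 were taken as the protein-coding genes of the count table with a symbol of ZNF followed by a number and a GENCODE position on chromosome 19. There were 241 such genes among 60671 genes in the table, and 206 of them passed the expression limit of over 1 CPM (a gene's count scaled to a common total of gene counts) in 3 or more of the 12 libraries. Of the 206, 6 reached the limit only in WT libraries (ZNF880, ZNF844, ZNF667, ZNF671, ZNF610 and ZNF837; 2.91%, against 2.64% of all genes that passed) and 4 only in ΔLEO1 libraries (ZNF233, ZNF442, ZNF257 and ZNF681; 1.94%, against 1.83%). A test between the genotypes of these genes is not independent of the limit. Of the 35 that did not pass, 7 had no count in any library and 28 had some counts, with 69 as the highest count in a library (ZNF726). The limit was passed by 13236 genes in all, by 201 of 235 ZNF-number genes on other chromosomes, and by 662 of 1229 other protein-coding genes of chromosome 19.

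Most zinc finger genes of this chromosome encode proteins with a KRAB domain at one end and an array of C2H2 zinc fingers at the other. The fingers bind DNA, many of them at transposable elements, and the KRAB domain recruits the corepressor TRIM28, through which the histone methyltransferase SETDB1 and heterochromatin proteins reach the site. The genes arose by repeated tandem duplication and lie in clusters, and several clusters carry H3K9 methylation themselves, placed in part through the family member ZNF274.

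The cells were BJ-5ta, a human fibroblast line immortalized with hTERT, either wild type (WT) or from 1 CRISPR clone without functional LEO1 (ΔLEO1), a subunit of the PAF1 complex that travels with RNA polymerase II. Both were grown in RPMI with 10% serum (WT_10 and Leo1_10) or kept for 10 days in 0.1% serum, which makes fibroblasts quiescent (WT_01 and Leo1_01). RNA of 3 libraries for each of the 4 groups was sequenced, with ERCC transcripts added as an external standard. All ΔLEO1 libraries came from the same clone, so that a property of the clone and the loss of LEO1 cannot be told apart, and it is not given whether the libraries of a group came from separate cultures, so that p-values may measure technical spread only.

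LEO1 itself had 851, 935 and 915 counts in the WT_10 libraries and 53, 36 and 55 in the Leo1_10 libraries. In 0.1% serum it had 1001, 799 and 682 counts in WT and 23, 47 and 49 in ΔLEO1. On the ERCC scale its log2 difference was −4.02 ± 0.58 (SE, adjusted p = 2.4e-10) between Leo1_10 and WT_10. Between Leo1_01 and WT_01 it was −4.32 ± 0.59 (adjusted p = 2.1e-11). Both were in the direction of the labels. Adjusted p-values are from edgeR's quasi-likelihood test with Benjamini-Hochberg adjustment.

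The libraries held 26240632 to 45315560 gene counts, and 0.625% to 3.24% of their counts were ERCC transcripts. The highest-numbered library of each group (3, 6, 9 and 12) stood apart: the chi-square per gene between libraries of a group was 66.2 to 144 for pairs with it and 3.04 to 12.1 for the other pairs. All 8 fibroblast markers passed the limit, with a summed level of 51900 to 75570 CPM, and no epithelial, endothelial, melanocyte or muscle marker did. Summed epithelial markers were at 0.302 to 0.434 CPM in WT_10 and 0.927 to 1.51 CPM in Leo1_10, and summed muscle markers at 0.356 to 0.408 CPM and 0.971 to 9.14 CPM, with 392 counts of MYH11 in library 6. Of 3 leukocyte markers 2 passed, with a summed level of 0.995 to 1.70 CPM in WT and 2.68 to 8.24 CPM in ΔLEO1. PTPRC had 8 to 21 counts in the WT libraries and 61 to 269 in the ΔLEO1 libraries. CD14, the other that passed, had 26 to 52 counts in WT and 18 to 57 in ΔLEO1, and the T cell marker CD3E had 0 or 1. Endothelial and melanocyte sums stayed under 1 CPM in every library, and the muscle marker MYOD1 had no count. The part of these differences in the results below was not tested.

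Differences are given on 2 scales. The ERCC scale divides by the added transcripts and so follows the amount of each RNA per amount of standard, and on it fewer cells and less RNA per cell cannot be told apart. The relative scale (TMM, edgeR's trimmed mean of M values on the genes) sets the bulk of the genes to no change. The median over all tested genes was 0.35 (10% serum) and 0.27 (0.1% serum) for ΔLEO1 less WT, and −0.97 (WT) and −1.05 (ΔLEO1) for 0.1% less 10% serum on the ERCC scale, against 0.00, 0.02, 0.00 and 0.01 on the relative scale. All differences are log2 values.

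The genes lay in 10 clusters with gaps of at most 0.5 Mb inside them, which held 229 genes, and 12 genes lay outside. Along the chromosome (GRCh38) the clusters ran from 2.82 to 2.94 Mb (cluster 1, 5 genes, 4 of them tested), 8.51 to 9.79 Mb (cluster 2, 13 and 11), 11.5 to 12.6 Mb (cluster 3, 25 and 18) and 19.7 to 24.1 Mb (cluster 4, 37 and 24). The others ran from 34.7 to 35.0 Mb (cluster 5, 5 and 5), 36.2 to 37.8 Mb (cluster 6, 25 and 23), 43.5 to 44.5 Mb (cluster 7, 23 and 23), 51.6 to 53.6 Mb (cluster 8, 39 and 38), 55.5 to 56.7 Mb (cluster 9, 16 and 15) and 57.2 to 58.5 Mb (cluster 10, 41 and 37). For each gene the longest protein translated from any of its transcripts was read. A string typical of the KRAB A box was found in it for 193 of the 241 genes, and the number of C2H2 fingers had a median of 12 (0 to 39). Stretches of the read length, 58 bases, that also occur in transcripts of other genes made up a median of 1.41% of a gene and up to 86.2%. Reads of the 40 genes with over 10% of such stretches, 30 of them tested, are uncertain.

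The promoters of members at opposite ends of the range of differences described below are shown for their content of CG dinucleotides, the sites of DNA methylation, which are in capitals. ZNF844 and ZNF880 were nearly without counts in ΔLEO1, and ZNF675 was among the members that were higher there. The stretches are from the 250 bases upstream of each RefSeq gene start (GRCh38.p14), 5′ to 3′ on the strand of the gene, without bases that lie in a GENCODE exon, and they cover chr19:12064481-12064698 (plus strand), chr19:52369673-52369916 (plus strand) and chr19:23687221-23687462 (minus strand).
ZNF844: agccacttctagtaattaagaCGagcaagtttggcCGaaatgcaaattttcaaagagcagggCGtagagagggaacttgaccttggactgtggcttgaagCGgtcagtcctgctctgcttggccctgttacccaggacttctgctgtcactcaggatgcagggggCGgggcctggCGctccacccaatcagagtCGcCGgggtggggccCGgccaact
ZNF880: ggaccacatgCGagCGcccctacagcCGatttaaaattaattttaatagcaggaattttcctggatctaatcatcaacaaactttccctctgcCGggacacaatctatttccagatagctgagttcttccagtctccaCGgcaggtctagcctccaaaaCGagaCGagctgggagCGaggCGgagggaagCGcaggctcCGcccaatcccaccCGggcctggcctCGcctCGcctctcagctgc
ZNF675: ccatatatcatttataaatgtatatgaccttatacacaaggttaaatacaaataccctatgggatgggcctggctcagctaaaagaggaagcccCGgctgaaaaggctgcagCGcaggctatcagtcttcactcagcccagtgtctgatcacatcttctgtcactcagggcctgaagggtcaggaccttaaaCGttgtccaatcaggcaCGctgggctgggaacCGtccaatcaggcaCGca
They held 9 CG in 218 bases, 14 in 244 bases and 6 in 242 bases. The full windows of 250 bases, which the medians below refer to, held 13 (ZNF844), 17 (ZNF880) and 6 (ZNF675). The 3 are single examples. Among other members higher in Leo1_10 on the ERCC scale, ZNF274 held 14, ZNF460 and ZNF14 12 each, ZNF442 10, ZNF91 and ZNF737 7 each and ZNF708 3. CG occurred in 93.94% of all 35116 promoters, with a median of 11 in 250 bases, and in 100% of the 210 member promoters matched by name, with a median of 16.

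The members were expressed at a low level. Their summed counts came to 53963 to 86593 per library, and 224 to 232 of the 241 had a count in a given library. Per kilobase of exon, the median tested member had 1.15 CPM, against 4.38 CPM over all tested genes. The highest level was that of ZNF358 (29.2 CPM per kb), followed by ZNF146 (24.9), ZNF428 (17.0), ZNF580 (11.1) and ZNF581 (9.11), and none of these 5 had the KRAB A string. Reads of ZNF580 and ZNF581 are uncertain because both overlap CCDC106 and each other on the same strand, and 18.1% of the stretches of ZNF358 occur in other genes. ZNF536, a repressor known from neurons, had no count in any library.

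The share of all gene counts that fell on the 241 genes was 0.158%, 0.155% and 0.141% in the WT_10 libraries and 0.202%, 0.206% and 0.188% in the WT_01 libraries. It was 0.190%, 0.191% and 0.182% in Leo1_10 and 0.183%, 0.204% and 0.204% in Leo1_01. The 3 WT_10 libraries were thus below all 9 others, which overlapped between groups. Wilson 95% intervals were 0.002 to 0.003 percentage points wide and cover counting error only.

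**Figure D1:**
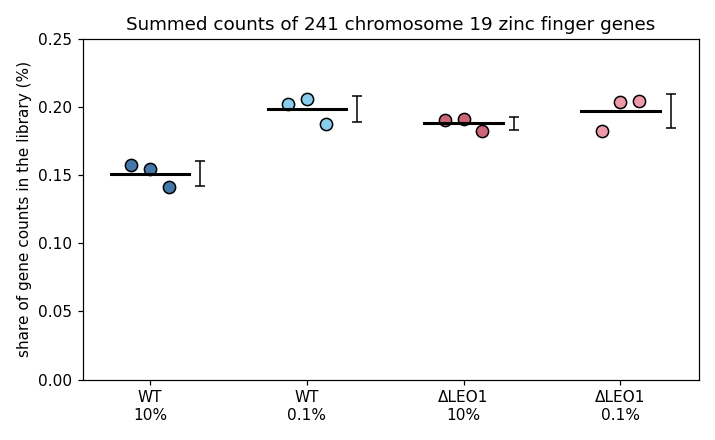
Share of gene counts (%, vertical axis from 0) that fell on the 241 zinc finger genes of chromosome 19 in each library (points), with the group mean (line) and SD (bar beside it), n = 3 libraries per group. The WT_10 libraries sit between 0.141% and 0.158%, below the 9 libraries of the other groups.

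In 10% serum, loss of LEO1 went with a wide range of differences among the members, from near loss of 3 genes to increases of over 1 log2 unit. On the ERCC scale, 9 of the 206 tested members were higher in ΔLEO1 (4.37%, against 3.81% of all tested genes) and 3 were lower (1.46%, against 4.20%), so that the share of higher members was near that of all genes. The median of the members was 0.66, above those of ZNF-number genes on other chromosomes (0.38), other genes of chromosome 19 (0.42) and all tested genes (0.35). ERCC-scaled counts of the WT and ΔLEO1 libraries did not overlap for 90 members that were higher in ΔLEO1 (43.7%, against 23.7% of all tested genes) and for 9 that were lower (4.37%, against 6.94%). In CPM, 115 members were separately higher (55.8%, against 29.8%) and 25 separately lower (12.1%, against 29.6%).

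On the relative scale, 85 members rose in ΔLEO1 (41.3%, against 17.9% of all tested genes) and 20 fell (9.71%, against 21.4%). The median was 0.32, and 157 of the 206 values were above 0. Of the ZNF-number genes on other chromosomes 39 of 201 rose and 22 fell, with a median of 0.04, and of the other genes of chromosome 19 129 of 662 rose and 106 fell, with a median of 0.07. Without libraries 3, 6, 9 and 12, 102 of 203 members rose and 27 fell, against 30.3% and 31.9% of all genes tested in that fit.

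**Figure D2:**
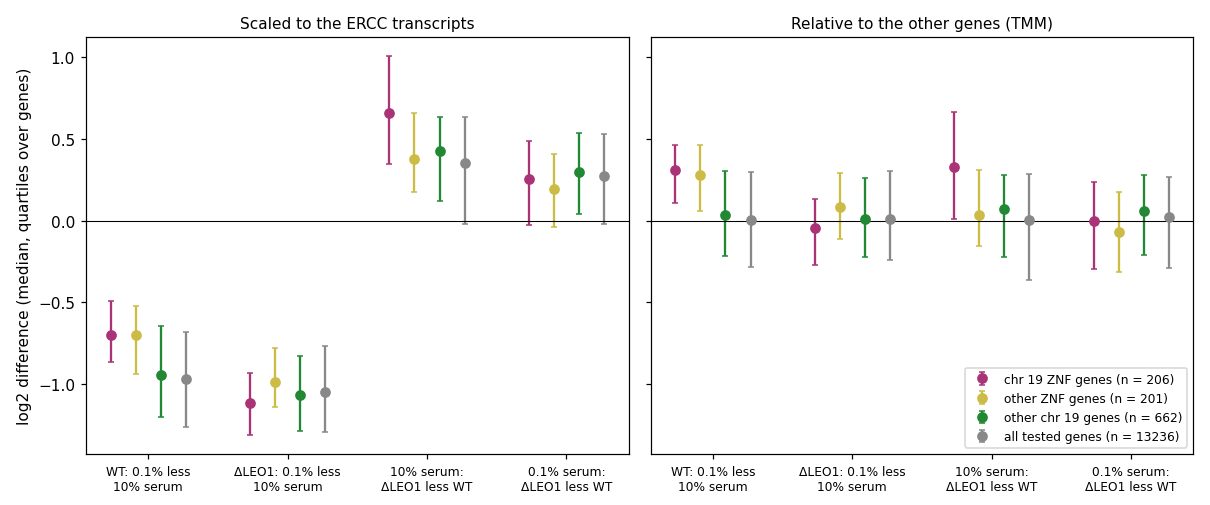
Log2 differences (vertical axis) in 4 comparisons for the 206 tested zinc finger genes of chromosome 19, 201 ZNF-number genes of other chromosomes, 662 other genes of chromosome 19 and all 13236 tested genes, on the ERCC scale (left) and relative to the other genes (right). Points are medians and bars the quartiles over genes, and the chromosome 19 zinc finger genes lie highest in the comparison of ΔLEO1 with WT in 10% serum, at 0.66 and 0.32.

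The clusters differed in size of the difference. Cluster 4 had the highest median, 1.23 on the ERCC scale and 0.94 relative to the other genes, and 6 of the 9 members that were higher on the ERCC scale lay in it. Of its 24 tested members, 13 rose on the relative scale and 1 fell. In cluster 3, 13 of 18 rose and 2 fell (median 0.60), and in cluster 1, 3 of 4 rose (median 0.74). Medians were lowest in cluster 9 (0.10, with 2 of 15 up and 2 down), cluster 5 (0.12, with 1 of 5 up and 1 down) and cluster 2 (0.14, with 4 of 11 up and 3 down). Clusters 6, 7, 8 and 10 lay between, with medians of 0.31, 0.30, 0.26 and 0.37. Differences between clusters were not tested.

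**Figure D3:**
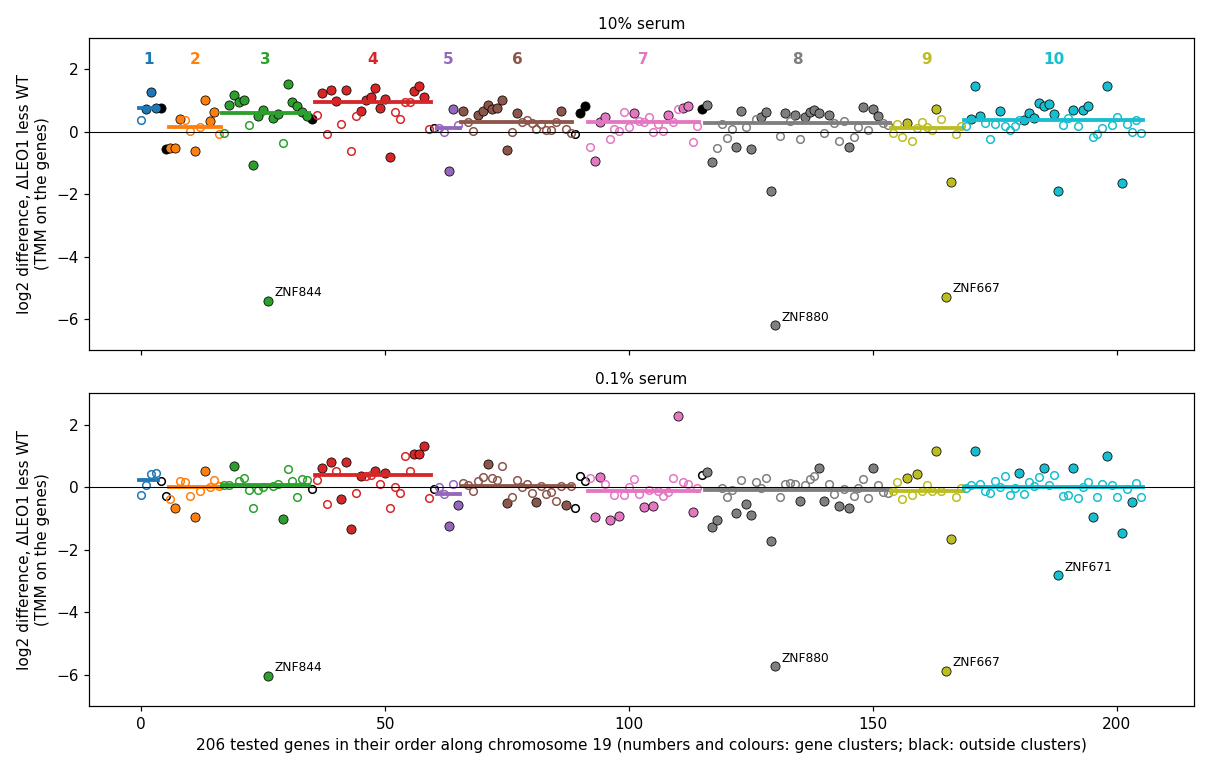
Log2 difference of ΔLEO1 less WT relative to the other genes (vertical axis) for the 206 tested members in their order along chromosome 19, in 10% serum (top) and 0.1% serum (bottom). Filled points passed the test, colours and numbers mark the 10 clusters, lines are cluster medians, and ZNF844, ZNF880 and ZNF667 stand below −5 in both panels.

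The summed CPM of cluster 4 in Leo1_10 was 1.75 times the WT_10 mean (1.61 to 1.82 in single libraries), and those of clusters 1 and 3 were 1.60 and 1.47 times. That of cluster 5 was 1.01 times the WT_10 mean. In the WT_01 libraries the sums of all 10 clusters lay above the WT_10 mean, at 1.21 times (clusters 3 and 9) to 1.47 times (cluster 1).

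**Figure D4:**
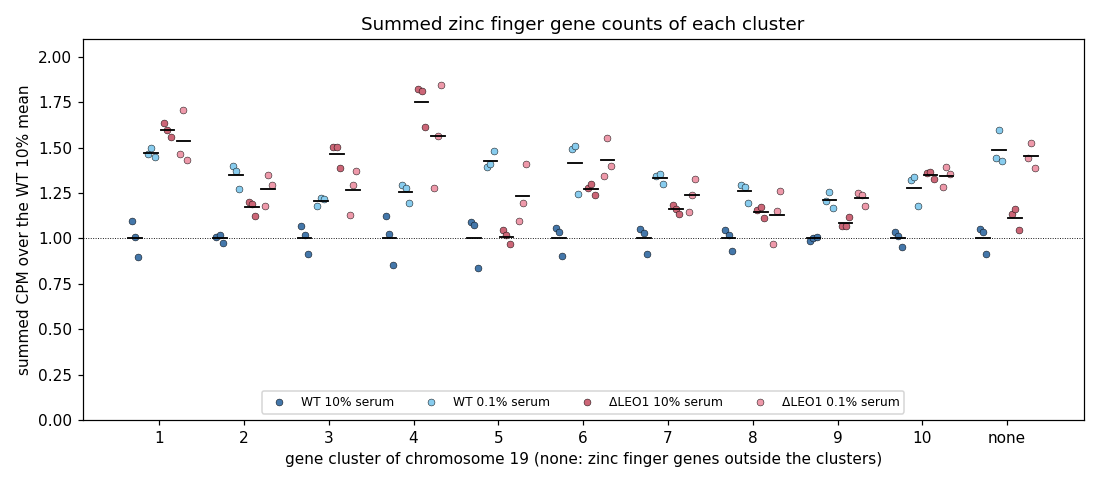
Summed CPM of the zinc finger genes of each cluster over the WT_10 mean of the same cluster (vertical axis), with 1 point per library and lines at group means (n = 3). Cluster 4 reached 1.75 times in Leo1_10, and cluster 5 stayed at 1.01 times.

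ZNF880 (ENSG00000221923, chr19:52369917-52385795, cluster 8), a KRAB zinc finger gene, had 203, 203 and 144 counts in the WT_10 libraries and 3, 3 and 2 in Leo1_10. In 0.1% serum it had 208, 139 and 159 counts in WT and 4, 1 and 5 in ΔLEO1. No ΔLEO1 library came near any WT library. Ratios of summed counts were corrected for the ERCC counts of the libraries times their TMM factor, and so are on the ERCC scale. For ZNF880 the ratio was 59.2 in 10% serum (exact 95% counting interval 29.8 to 138) and 52.7 in 0.1% serum (28.4 to 111), with WT higher. On the ERCC scale the log2 difference was −5.96 ± 0.74 (adjusted p = 9.7e-14) and −5.53 ± 0.72 (adjusted p = 1.9e-12).

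ZNF844 (ENSG00000223547, chr19:12064699-12081565, cluster 3) had 49, 46 and 35 counts in WT_10 and 0, 1 and 2 in Leo1_10. In 0.1% serum it had 53, 45 and 44 counts in WT and 2, 0 and 0 in ΔLEO1. The groups were thus separate at both serum levels, with ratios of 37.3 (12.5 to 183) and 73.9 (20.1 to 616). The ERCC-scale differences were −5.28 ± 0.84 (adjusted p = 2.1e-08) and −5.97 ± 0.88 (adjusted p = 8.2e-10).

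ZNF667 (ENSG00000198046, chr19:56439325-56478065, cluster 9) had 105, 72 and 79 counts in WT_10 and 3, 1 and 3 in Leo1_10. In 0.1% serum it had 93, 66 and 132 counts in WT and 0, 1 and 4 in ΔLEO1. The ratios were 31.5 (15.1 to 79.1) and 60.6 (25.7 to 188), and the ERCC-scale differences −5.04 ± 0.74 (adjusted p = 9.6e-10) and −5.64 ± 0.78 (adjusted p = 4.9e-11). ZNF667-AS1, which overlaps it on the opposite strand, had 121, 131 and 127 counts in WT_10 and 1, 2 and 0 in Leo1_10. Since the strand setting of the counting is not given, reads of this pair cannot be told apart. All 3 genes passed the expression limit only through WT libraries, in which they were higher. ZNF880, ZNF844 and ZNF667 remained lower, by the test, in all 12 fits with 1 library left out, at both serum levels. These fits applied the same expression limit, so they are not independent of it and add no separate support.

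Next to these genes the picture was mixed. ZNF610, the member before ZNF880, had 75, 55 and 59 counts in WT_10 and 12, 26 and 19 in Leo1_10, and fell relative to the other genes (−1.91 ± 0.27, adjusted p = 1.7e-04) but did not pass on the ERCC scale (−1.65 ± 0.59, adjusted p = 0.061). ZNF610 passed the expression limit only through 6 WT libraries, the genotype in which it was higher, so its test is not independent of the limit. ZNF528, the member after ZNF880, had a relative difference of −0.14 (adjusted p = 0.45). ZNF471, the member after ZNF667, had 166, 230 and 169 counts in WT_10 and 49, 61 and 96 in Leo1_10, with a relative difference of −1.63 ± 0.24 (adjusted p = 2.3e-04) and −1.35 ± 0.54 on the ERCC scale (adjusted p = 0.13). The member on its other side, ZNF583, had 0.39 (adjusted p = 0.16). The nearest tested members around ZNF844, ZNF433 (0.70, adjusted p = 0.017) and ZNF136 (0.43, adjusted p = 0.024), rose, as did ZNF480 (0.63, adjusted p = 9.3e-04) and ZNF766 (0.46, adjusted p = 0.0048) before ZNF610, ZNF578 (0.58, adjusted p = 0.044) after ZNF528, and ZNF582 (0.72, adjusted p = 0.0098) before ZNF583. These neighbours were chosen by position after values were seen.

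Of the 9 members that were higher in Leo1_10 on the ERCC scale, ZNF274, which binds the 3′ ends of zinc finger genes, had 8.77, 9.52 and 8.42 CPM in WT_10 and 23.9, 23.9 and 25.2 CPM in Leo1_10. The groups did not overlap, and the difference was 1.78 ± 0.51 (adjusted p = 0.0081) on the ERCC scale and 1.44 ± 0.10 (adjusted p = 8.2e-07) relative to the other genes. ZNF91, a repressor of SVA retrotransposons, had 11.5, 11.2 and 9.36 CPM in WT_10 and 27.6, 25.3 and 26.2 CPM in Leo1_10 (1.62 ± 0.50, adjusted p = 0.019, and relative 1.30 ± 0.17). ZNF675, a KRAB member known to act on TRAF6 signalling, had 5.48, 4.98 and 4.26 CPM in WT_10 and 15.1, 14.1 and 11.4 CPM in Leo1_10. Its ERCC-scale difference was 1.79 ± 0.52 (adjusted p = 0.010). ZNF708 (1.73), ZNF253 (1.73), ZNF737 (1.65) and ZNF14 (1.63), all of cluster 4 like ZNF91 and ZNF675, ZNF460 of cluster 10 (1.81) and ZNF442 of cluster 3 (1.81) made up the rest, with adjusted p of 0.016 to 0.037. ZNF442 passed the expression limit only through 5 ΔLEO1 libraries, the genotype in which it was higher. None of the 9 was called in the fit without library 4 of Leo1_10, without library 2 of WT_10 or without library 3 of WT_10, and 2 were called without library 5 of Leo1_10. Without library 7, 11 or 12 of the low-serum groups 5, 22 and 28 members were higher, and the shares of all genes in these fits are not given here.

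**Figure D5:**
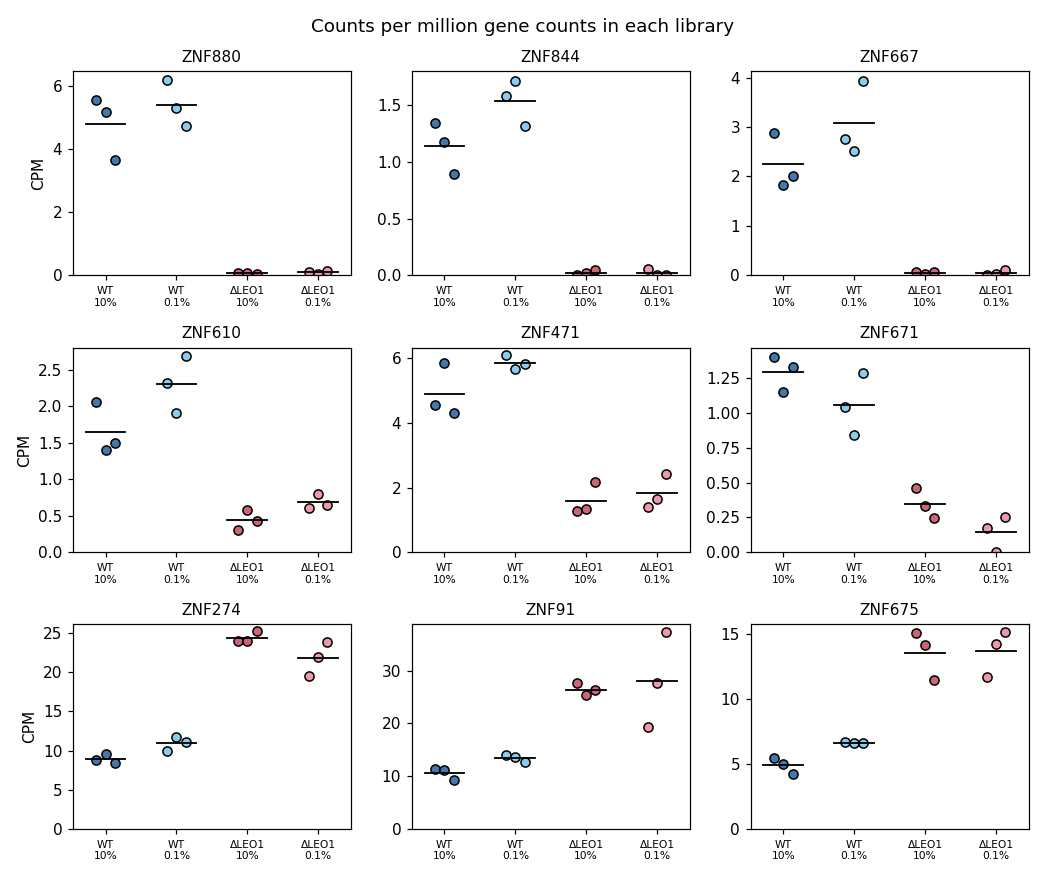
CPM (vertical axis from 0, own scale in each panel) of 9 members in each library, with lines at group means (n = 3 libraries per group). ZNF880, ZNF844 and ZNF667 are near 0 in all 6 ΔLEO1 libraries, and ZNF274, ZNF91 and ZNF675 are higher in all 6 of them than in any WT library.

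Other members with a known role had smaller differences. ZNF93, a repressor of LINE-1 elements, had 2.37 ± 0.38 CPM (SD, n = 3) in WT_10 and 4.74 ± 0.92 CPM in Leo1_10. Its difference passed relative to the other genes (0.99 ± 0.24, adjusted p = 0.0063) and not on the ERCC scale (1.33 ± 0.54, adjusted p = 0.13). The same held for ZNF175 (relative 0.86 ± 0.10, adjusted p = 4.5e-05) and for ZNF382 (0.83 ± 0.25, adjusted p = 0.021). The imprinted gene ZNF331 (0.22 ± 0.17, adjusted p = 0.32), the p53 regulator ZNF420 (0.37 ± 0.14, adjusted p = 0.057) and ZNF224 (0.45 ± 0.18, adjusted p = 0.062) passed on neither scale.

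In 0.1% serum the difference between ΔLEO1 and WT was smaller for most members. On the ERCC scale 1 of 206 was higher in ΔLEO1 (0.485%, against 3.49% of all tested genes) and 4 were lower (1.94%, against 3.41%), and the median was 0.26, near the 0.27 of all genes. The median turned to −0.31 without library 12, with 13 members lower, and to −0.47 without libraries 3, 6, 9 and 12, with 29 lower, and it was 0.57 without library 11, with 10 higher. Medians and shares of all genes in these fits are not given here, so a shift of the members alone cannot be read from them. ERCC-scaled counts did not overlap for 3 members that were higher and 6 that were lower, against 4.64% and 4.83% of all genes. In CPM the groups were separate for 29 higher members (14.1%, against 19.7%) and 54 lower ones (26.2%, against 21.8%). Relative to the other genes, 25 members rose (12.1%, against 15.1%) and 34 fell (16.5%, against 17.3%), with a median of 0.00. Without libraries 3, 6, 9 and 12, 29 rose and 49 fell of 203 (14.29% and 24.14%). Of all genes in that fit 30.44% rose and 29.045% fell, so that the members were called less often in both directions.

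ZNF844, ZNF880 and ZNF667, described above, were 3 of the 4 lower members in 0.1% serum. ZNF671, the other, had 35, 22 and 43 counts in WT_01 and 6, 0 and 9 in Leo1_01, with a difference of −2.43 ± 0.68 (adjusted p = 0.0066) that was lost without library 10 or without library 11. In 10% serum it had 51, 45 and 52 counts in WT and 18, 15 and 11 in ΔLEO1 (−1.52 ± 0.60, adjusted p = 0.12). ZNF671 passed the expression limit only through 5 WT libraries, the genotype in which it was higher. The higher member was ZNF233, with 9, 1 and 9 counts in WT_01 and 22, 18 and 62 in Leo1_01 (2.89 ± 0.66, adjusted p = 3.6e-04). It overlaps ZNF235 on the opposite strand, and its reads are uncertain for that reason. It passed the expression limit only through 3 ΔLEO1 libraries, the genotype in which it was higher, and without library 4, 6 or 12 it was not tested.

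Relative to the other genes, 22 members rose in ΔLEO1 at both serum levels, which were 25.9% of those that rose in 10% serum and 22 of the 25 that rose in 0.1% serum. Over all tested genes these shares were 57.7% and 68.2%. Of the members that fell, 16 did so at both levels (80.0% and 47.1%), against 63.2% and 78.2% over all genes. In cluster 4, 9 of 24 members rose in 0.1% serum and 2 fell (median 0.38), and the medians of the other clusters lay between −0.21 (cluster 5) and 0.24 (cluster 1). ZNF274 (1.01 ± 0.10, adjusted p = 1.8e-05), ZNF91 (1.06 ± 0.17, adjusted p = 6.7e-04) and ZNF675 (1.06 ± 0.13, adjusted p = 1.2e-04) rose relative to the other genes, and none of them passed on the ERCC scale.

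RNA amounts per ERCC standard were lower in 0.1% serum in both genotypes, by the median of the members as of all genes. In WT no member was higher on the ERCC scale (0.831% of all tested genes were) and 6 were lower (2.91%, against 27.0%), with a median of −0.70. This count rested on single libraries: it was 51 without library 12, 34 without library 11 and 28 without library 3, 1 without library 1, 2, 7 or 9, 3 without library 8, and 4 without library 4, 5, 6 or 10. It was 46 in the fit of the 6 libraries compared and 68 without libraries 3, 6, 9 and 12. Shares of all genes in these fits are not given here, so these counts do not set the members apart from other genes. By ERCC-scaled counts, 0 members were separately higher in WT_01 (1.16% of all genes were) and 33 separately lower, against 53.4%. In CPM 124 were separately higher (60.2%, against 31.5%) and 4 separately lower (1.94%, against 18.6%). The median of the ZNF-number genes on other chromosomes was also −0.70, and that of all genes −0.97. By TMM, 58 members rose (28.2%, against 15.5%) and 2 fell (0.971%, against 16.1%), with a median of 0.31. The ZNF-number genes of other chromosomes had 62 of 201 up and 6 down, with a median of 0.28.

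The called members with the largest decreases in WT and no overlap between the groups were ZNF233 (−2.64 ± 0.67, adjusted p = 0.0015), ZNF439 (−1.70 ± 0.55, adjusted p = 0.017), ZNF772 (−1.56 ± 0.54, adjusted p = 0.023), ZNF382 (−1.45 ± 0.57, adjusted p = 0.043) and ZNF699 (−1.37 ± 0.53, adjusted p = 0.040) on the ERCC scale. ZNF714 was also called (−1.56 ± 0.52, adjusted p = 0.021), but its groups overlapped. Relative to the other genes only ZNF772 (−0.53) and ZNF699 (−0.43) of these 5 fell, each with an adjusted p of 0.049. ZNF233 was over 1 CPM in 0 WT libraries, with 66 summed counts in WT_10 and 19 in WT_01, and its reads are uncertain. With 1 library left out, it was called in all 9 fits that tested it. ZNF439 was called in 8 of 12 such fits on the ERCC scale, ZNF772 in 7, ZNF699 in 5 and ZNF382 in 3.

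In ΔLEO1, no member was higher in 0.1% serum on the ERCC scale (0.793% of all tested genes were) and 68 were lower (33.0%, against 36.4%), with a median of −1.12 against −1.05 for all genes. ERCC-scaled counts did not overlap for 0 higher members (0.846% of all genes) and 111 lower members (53.9%, against 50.9%). In CPM the groups were separate for 39 higher (18.9%, against 27.3%) and 32 lower members (15.5%, against 15.8%). By TMM, 11 members rose (5.34%, against 15.5%) and 20 fell (9.71%, against 12.1%), with a median of −0.04. The count on the ERCC scale rested on single libraries and was 197 without library 12, 0 without library 4 or 10, 3 without library 11, 10 without library 5, 24 without library 7 and 26 without library 2. Shares of all genes in those fits are not given here either. Within cluster 3, 13 of 18 members were lower on the ERCC scale and 6 fell relative to the other genes, with none up (median −0.47). The largest decrease was that of ZNF671 (−2.30 ± 0.70, adjusted p = 0.012). It had only 44 summed counts in Leo1_10 and 15 in Leo1_01, with 0 ΔLEO1 libraries over 1 CPM. The call was lost without library 4, 10 or 11. ZNF530 went from 4.64 ± 0.76 to 2.58 ± 0.30 CPM (−2.06 ± 0.55 on the ERCC scale, adjusted p = 0.0044) and ZNF714 from 13.6 ± 1.7 to 6.73 ± 2.66 CPM (−2.02 ± 0.53, adjusted p = 0.0035). ZNF439 (−1.92), ZNF792 (−1.91), ZNF793 (−1.88), ZNF823 (−1.81) and ZNF563 (−1.80) followed.

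Whether the serum response differed between the genotypes was tested as an interaction. On the ERCC scale no member passed by edgeR's quasi-likelihood test, 1 had an unadjusted p under 0.05, and 0.113% and 0.0604% of all genes were higher and lower. The median of the members was −0.44, against −0.07 for all genes and −0.22 for the ZNF-number genes of other chromosomes. Relative to the other genes no member had a higher response in ΔLEO1 (1.55% of all genes did) and 4 had a lower one (1.94%, against 0.453%), with a median of −0.36 against 0.02 for all genes, and 25 of the 206 values were above 0. Without libraries 3, 6, 9 and 12, 3 members had a higher and 48 a lower response of 203 (1.48% and 23.6%, against 15.7% and 8.66% of all genes in that fit).

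The members with the KRAB A string had a relative median of 0.37 for ΔLEO1 less WT in 10% serum, with 72 of 169 up and 16 down, and those without it 0.18, with 13 of 37 up and 4 down. In 0.1% serum the medians were 0.00 and 0.06. Across members, the relative difference in 10% serum had a Spearman correlation of −0.26 with the number of CG in 250 upstream bases (183 members), −0.17 with the GC content of the longest transcript and −0.01 with the level per kb (206 members each). In 0.1% serum these were −0.09, −0.07 and 0.10. The members share the 12 libraries and, in part, their sequences, so that they are not independent, and no test was made.

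Genes of KRAB repression and of histone and DNA methylation and its removal, with the PAF1 complex, were read as a list of 36 genes, all of which passed the expression limit. On the ERCC scale LEO1 was the only one called between genotypes, at either serum level. On the relative scale 8 rose (22.2%, against 17.9% of all genes) and 6 fell (16.7%, against 21.4%) in ΔLEO1 in 10% serum, with a median of 0.11. In 0.1% serum 3 rose (8.33%, against 15.1%) and 6 fell (16.7%, against 17.3%), with a median of 0.06. TRIM28, the corepressor bound by KRAB domains, rose by 0.56 ± 0.11 in 10% serum (adjusted p = 0.0014) and by 0.42 ± 0.11 in 0.1% serum (adjusted p = 0.0095). TASOR, a subunit of the HUSH silencing complex, went from 97.4 to 38.5 CPM (−1.35 ± 0.12, adjusted p = 6.8e-06), the heterochromatin protein CBX5 from 190.3 to 105.6 CPM (−0.86 ± 0.17, adjusted p = 0.0022) and the DNA methyltransferase DNMT3A from 19.4 to 11.5 CPM (−0.77 ± 0.17, adjusted p = 0.0045) in 10% serum. SETDB1 had 27.1 and 28.1 CPM (0.04 ± 0.11, adjusted p = 0.79). The heterochromatin protein CBX3 rose from 139.2 to 186.5 CPM in 10% serum (0.41 ± 0.08, adjusted p = 0.0016). In 0.1% serum it rose by 0.28 ± 0.08 (adjusted p = 0.018). LEO1 was among the genes of the list that fell at both serum levels. The others called in 10% serum, in either direction, were PPHLN1, DNMT3B, HDAC1, HDAC2, KDM4B, KDM4C and, of the PAF1 complex, CTR9 and SKIC8. Those called in 0.1% serum were TRIM28, CBX3, CBX5, TASOR, DNMT3A, LEO1, MORC2, TET2 and CTR9. In low serum 11 of the 36 were lower in WT (30.6%, against 27.0%) and 16 in ΔLEO1 (44.4%, against 36.4%) on the ERCC scale, and 0 were higher, against 0.831% and 0.793%.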

How the data were processed

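The authors demultiplexed with bcl2fastq 2.20.0.422, aligned with STAR (2.7.10a in the submitters' processing notes) to the human genome with the ERCC sequences, and counted with featureCounts 1.5.1. They deposited whole-number read counts per gene, not normalized. Which annotation release they counted on, and whether strand was used, is not given in the sources used here. All columns were matched to libraries (0 left out).

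Of 60671 gene identifiers, 58453 matched GENCODE release 29 (GRCh38), which gave positions and exons. Genes with over 1 CPM in 3 or more libraries were fitted with edgeR 4.0.16 (R 4.3.3), all 12 libraries and 4 group means in 1 fit, with library sizes from the 92 ERCC transcripts times their TMM factor, and tested with the two-sided quasi-likelihood test (adjusted p under 0.05, Benjamini-Hochberg over all tested genes). The test within edgeR was chosen here. The relative scale, DESeq2 1.42.0, the likelihood ratio test, no filter, 6-library fits and left-out libraries were alternatives. The covariate for the highest-numbered libraries and the relative-scale fits with libraries left out were added after seeing the data. The code was tested on simulated data.

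Named members were LEO1 as a check, per comparison up to 8 called members with the largest change each way and no overlap on the ERCC scale, called members of the interaction, members with 3 or fewer counts in all 6 libraries of a genotype, a list with known roles, the 5 highest per kb and called cofactors. Sequences are from RefSeq, and the upstream window of ZNF667, which lies within annotated exons, is not shown. The members, lists and tests were chosen with earlier results of these data known. Counting intervals are exact or Wilson 95% intervals and cover counting error only.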

Additional observations from a re-analysis of the deposited data

Results flagged for a closer look

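For 4 members the serum response differed between the genotypes by the interaction test relative to the other genes. The response in ΔLEO1 less that in WT was −0.88 ± 0.17 (SE; adjusted p = 0.0217) for ZNF708, −0.83 ± 0.17 (adjusted p = 0.0354) for ZNF211, −0.69 ± 0.14 (adjusted p = 0.0347) for ZNF587 and −0.62 ± 0.13 (adjusted p = 0.0379) for ZNF526, by edgeR's quasi-likelihood test. ZNF708 had 3.13 ± 0.20 CPM (SD, n = 3) in WT_10, 5.92 ± 0.32 in WT_01, 8.28 ± 0.25 in Leo1_10 and 8.37 ± 1.00 in Leo1_01. ZNF526 went from 13.4 to 13.9 CPM in WT and from 23.7 to 15.7 CPM in ΔLEO1. ZNF211 went from 5.37 to 7.96 CPM in WT and from 9.95 to 8.19 CPM in ΔLEO1, and ZNF587 from 11.5 to 13.4 CPM and from 18.6 to 13.2 CPM. Reads of ZNF587 are uncertain, since 16.65% of its stretches of the read length occur in other genes and it overlaps AC010522.1 on the same strand. None of the 4 passed on the ERCC scale, where the differences were −0.95, −0.94, −0.77 and −0.75 in the order ZNF708, ZNF211, ZNF587 and ZNF526, and with 1 library left out 0 to 7 members passed on the relative scale.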

How the results depend on the processing

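No paired analysis was possible because the groups share no replicate number. ERCC shares differed up to 3.24% against 1.09% within Leo1_01, and the counts of members called on the ERCC scale moved with the libraries. For low serum in WT, 6 lower members became 46 in the 6-library fit, 19 with DESeq2, 14 with the likelihood ratio test, 2 on the relative scale and 68 without the 4 highest-numbered libraries (1 to 51 with 1 library left out), and 0 higher became 58 on the relative scale. In ΔLEO1, 68 lower became 2, 122 (DESeq2), 20 (relative), 21 (covariate), 24 (no filter) and 201 (without the 4), with 0 to 197 for 1 library left out, and 0 higher became 11 (relative). For ΔLEO1 against WT in 10% serum, 9 higher became 25 (6-library fit), 14 (DESeq2), 85 (relative) and 19 (without the 4), with 0 to 28 for 1 left out, and 3 lower became 6, 20 (relative) and 7, with 3 to 7. In 0.1% serum, 1 higher became 25 (relative), 2 (likelihood ratio test), 2 (no filter) and 0 (without the 4), with 0 to 10, and 4 lower became 34 (relative) and 29 (without the 4), with 3 to 13. The interaction count of 0 became 4 (relative). Medians were 0.31 (relative) for serum in WT, −0.044 (relative) and −1.80 (without the 4) for serum in ΔLEO1 and −0.0008 (relative) and −0.47 (without the 4) for 0.1% serum. With 1 library left out they ran from −0.96 to −0.46, −1.69 to −0.81, 0.43 to 0.92 (10% serum) and −0.31 to 0.57 (0.1% serum). For the ERCC-scale alternatives the matching counts and medians of all genes are not given here. A shift of all genes and one of the members therefore cannot be told apart in them. The cause was not tested.

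On the relative scale, leaving out 1 library gave 33 to 66 higher and 0 to 4 lower members for serum in WT, 5 to 14 and 9 to 24 in ΔLEO1, 65 to 91 and 15 to 21 for 10% serum, 18 to 26 and 27 to 41 for 0.1% serum and 0 to 7 for the interaction. Without the 4 libraries, 7 fell in WT (3.45%, against 30.0% of all genes in that fit). In ΔLEO1 28 rose and 52 fell (13.8% and 25.6%, against 28.3% and 27.7%), and 51 passed for the interaction. For ΔLEO1 against WT in 0.1% serum, differences turned without the 4 libraries for ZNF331 (−0.68), ZNF420 (−0.27), ZNF224 (−0.68), ZNF175 (−0.050), ZNF146 (−0.41), ZNF428 (−0.053) and ZNF581 (−0.57), and on the relative scale for ZNF331 (−0.20), ZNF224 (−0.081) and ZNF581 (−0.14). With 1 library left out they ran from −0.16 to 0.50 (ZNF146), −0.56 to 0.58 (ZNF224), −0.65 to 0.56 (ZNF331), −0.47 to 0.22 (ZNF358), −0.12 to 0.67 (ZNF420) and −0.36 to 0.39 (ZNF581), and for ZNF358 in 10% serum from −0.51 to 0.024. A gap of 1 Mb gave 9 clusters.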
